A study of Mus musculus with 6 samples.

Results

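Genes that set the balance of coagulation and fibrinolysis at the vessel wall were examined. The RNA sequenced was from cells that the study isolated as mouse peritoneal endothelial cells (ECs), and it also held markers of other cells. The set holds 9 of the 22183 genes in the deposited table, taken by symbol: Vwf, Thbd, Procr, Tfpi, F3, F2r, Plat, Plau and Plaur. It was drawn up with earlier results of these data known. Each symbol had a single row. Both groups were wild-type male C57BL/6J mice that were 8 to 10 weeks old, and they received a daily intraperitoneal injection for 6 weeks. PD mice (n = 3) were given peritoneal dialysis (PD) fluid with 4.25% glucose, and saline mice (n = 3) were given saline as sham controls. The study isolated the cells from the mesentery, and its methods describe flow sorting of CD31+ CD45- cells, whereas the sample labels describe magnetic sorting for CD31 alone. Each mouse gave a separate library, with 21973426 to 26374292 counts in total. The question was how exposure to PD fluid changed the transcripts of these regulators.

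A resting endothelium keeps blood fluid. Thrombomodulin on its surface turns thrombin into an activator of protein C, the endothelial protein C receptor presents protein C for that step, and tissue factor pathway inhibitor blocks the complex of tissue factor and factor VIIa that starts coagulation. The same cells store von Willebrand factor for platelet adhesion and release tissue-type plasminogen activator, which turns plasminogen into plasmin and so dissolves fibrin. In the peritoneum, mesothelial cells and macrophages also make several of these proteins, and loss of fibrinolytic activity is known for its link with fibrin deposits and adhesions.

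Of the 9 regulators, 7 rose in PD mice, 1 fell and 1 did not pass the test, and 2 of the 7 (Procr and Tfpi) were no longer higher when the libraries were scaled to endothelial markers. Tissue factor (F3) rose most, from 1.58 ± 0.68 to 13.9 ± 0.54 CPM (counts scaled to library size; SD, n = 3 mice each). Vwf, Plat, Thbd and F2r rose between 2.42-fold and 2.79-fold, and Tfpi and Procr rose 1.90-fold and 1.75-fold. Plaur, the most abundant of the 9 per length of transcript, fell to 0.825 times its level in saline mice. Its call was lost under 3 of 14 alternative fits, in each case with 1 mouse left out. Plau was low, with at most 72 counts in any mouse. Changes were tested with edgeR's quasi-likelihood test, with p adjusted by the Benjamini-Hochberg method over the 14005 genes that passed a filter on low counts, and all 9 passed that filter. Over those genes, 58.9% were called at an adjusted p of 0.05, 31.1% higher and 27.8% lower, against 7 and 1 of the 9. The median log2 fold change (PD against saline) was 1.30 over the 9 and 0.02 over all tested genes. In 8 of the 9 the groups were fully separate, with the PD mice above in 7 and below in 1. Such separation was seen in 65.6% of all tested genes (34.0% above and 31.6% below).

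**Figure D1:**
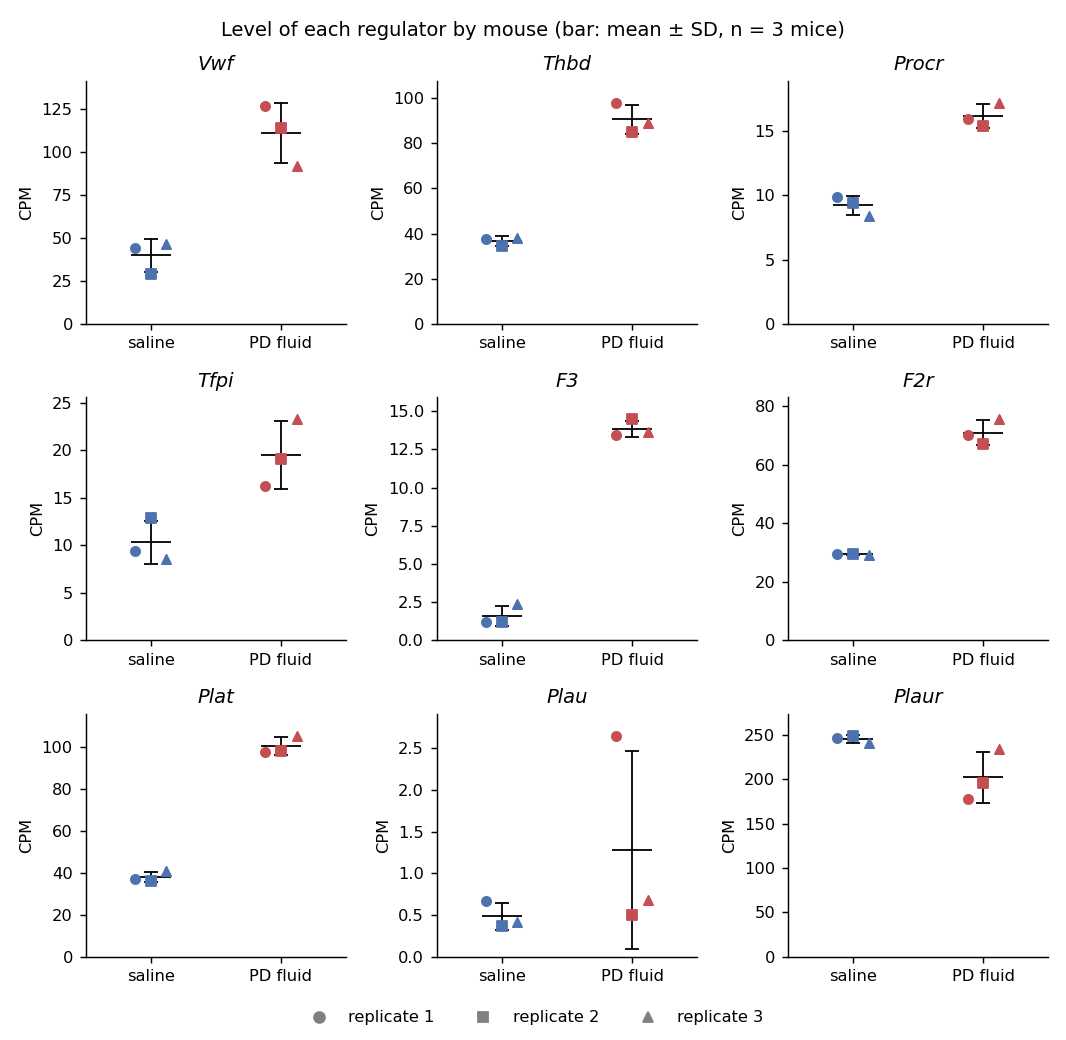
Level of each regulator in CPM (linear axes from 0) in each of 3 saline mice (blue) and 3 PD mice (red), with horizontal bars and whiskers for the mean ± SD. All PD mice lie above all saline mice for Vwf, Thbd, Procr, Tfpi, F3, F2r and Plat and below them for Plaur, while for Plau a single PD mouse at 2.65 CPM stands above the other 5 mice.

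The identity of the cells was checked first, because these genes are not made by ECs alone. Of 12 endothelial markers, none of them a member of the set, all were detected and 11 rose, with a median log2 fold change of 0.96 and a summed level that went from between 1124 and 1144 CPM to between 1788 and 1856 CPM. CD31 (Pecam1) stood at 469 ± 19.4 and 514 ± 7.85 CPM in the saline and PD groups (mean ± SD, n = 3 each; adjusted p = 0.0704), and VE-cadherin (Cdh5) at 18.9 ± 2.71 and 33.4 ± 1.03 CPM. Ptprc, the leukocyte gene that encodes CD45, was not absent. Per length it stood above Pecam1, at 624 ± 30.2 against 145 ± 4.44 FPKM in the saline group and 392 ± 7.73 against 158 ± 5.11 FPKM in the PD group, FPKM being the length-scaled values that the authors deposited. All 12 macrophage markers rose (summed level 2720 to 2864 CPM against 11160 to 12080 CPM), as did all 8 mesothelial markers (14.6 to 18.0 and 159 to 183 CPM), all 8 fibroblast markers (95.0 to 103 and 853 to 889 CPM) and 7 of 8 smooth muscle and pericyte markers (283 to 308 and 441 to 494 CPM). All 8 B cell markers fell, from between 6511 and 6788 CPM to between 3078 and 3136 CPM. Of the platelet markers, 5 of 8 were tested and 1, Pf4, rose, with a summed level of 37.3 to 39.7 against 99.3 to 105 CPM. All 12 pancreatic acinar markers rose, from 1.29 to 3.74 CPM in sum to between 7692 and 8708 CPM, and 6 of 7 tested neutrophil markers rose, while of 8 T and NK cell markers 2 rose and 3 fell. None of the markers in these lists was at 0 in all mice. The part of these other cells in the changes below was not tested, and in bulk libraries fewer cells of a type and less RNA per cell cannot be told apart.

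The 12 endothelial markers ranged from 0.13 (Pecam1, which did not pass the test) to 1.65 (Tie1) in log2 fold change, and every change was also computed with the libraries scaled to their mean log level. This scaling moved the median log2 fold change of all tested genes from 0.02 to -0.96, and 8.28% of them were then called higher and 72.2% lower. Relative to the endothelial markers, 5 of the 9 regulators rose (F3, Vwf, Plat, Thbd and F2r), Plaur fell, Plau did not pass the test, and Procr and Tfpi turned to values just below 0 that did not pass it. The median of the 9 was then 0.33. Of the 12 markers themselves, 3 were called higher and 3 lower under this scaling, from -0.85 (Pecam1) to 0.68 (Tie1). The values of Vwf, Plat, Thbd and F2r lay within that range, and that of F3 lay above it.

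**Figure D2:**
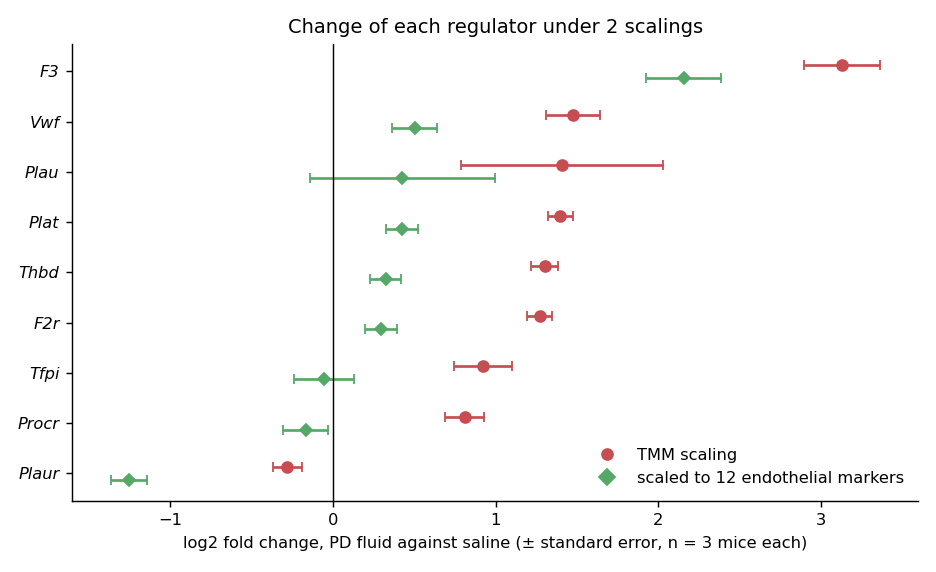
Log2 fold change of PD against saline mice (x axis, points with ± 1 standard error, n = 3 mice each) for the 9 regulators, with TMM scaling (circles) and with scaling to 12 endothelial markers (diamonds). F3 stands apart at 3.13 and 2.16, the points of Vwf, Plat, Thbd and F2r stay above 0 under both scalings, and those of Tfpi and Procr drop to -0.06 and -0.17 under the second.

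F3 (ENSMUSG00000028128) encodes tissue factor, the membrane receptor of factor VIIa that starts coagulation. On GRCm38 with the GENCODE M21 annotation it spans chromosome 3, 121723537 to 121735048, on the forward strand. The saline mice had 30, 26 and 57 counts, or 1.17, 1.20 and 2.36 CPM, and the PD mice had 366, 345 and 301 counts, or 13.5, 14.5 and 13.6 CPM. The lowest PD mouse thus lay far above the highest saline mouse, and the PD mice differed little among themselves. The change was 3.13 on the log2 scale (SE 0.24; adjusted p = 1.09e-06), larger than that of 98.4% of tested genes, and it was 2.16 relative to the endothelial markers (adjusted p = 1.37e-07). The low counts of the saline mice leave its size less certain than its direction, and it ran from 2.95 to 3.54 as 1 mouse at a time was left out. By the root mean square difference between centred log2(CPM + 1) profiles over the 6 mice, its nearest genes among 116 tested pathway and marker genes were Thbs1 (0.13) and the mesothelial marker Wt1 (0.14). The added 1 shrinks the profile of any gene near or below 1 CPM, so this measure describes such genes on that scale only. Thbs1 and Wt1 themselves changed by 2.49 and 3.84 on the log2 scale, beside 3.13 for F3. Where the groups lie apart and the levels are well above 1 CPM, a small difference mostly means a similar fold change. It does not show a shared cell of origin, here or for the members below.

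The start-site region of F3 is shown since it belongs to the member with the largest change, followed by those of F2r, a member with a moderate rise, and Plaur, the member that fell. RefSeq promoter windows on GRCm38.p6, from 250 bases before to 50 bases after the start site, were at hand for 5 of the 9 members, with 2 windows for Tfpi. Capitals mark every match, on either strand, to the letters TGANTCA (the AP-1 element), GGGCGG (the GC box), CACCC (bound by KLF factors), an NF-kB-like pattern (GGG and CC around 5 unspecified bases), ACGTG (the core of the hypoxia response element), CCGGAAG (ETS) or TATAAA (the TATA box), and neighbouring matches can overlap. The windows lie at chr3:121723287-121723586 (forward strand), chr13:95618417-95618716 (reverse strand) and chr7:24462233-24462532 (forward strand), written 5′ to 3′.
F3: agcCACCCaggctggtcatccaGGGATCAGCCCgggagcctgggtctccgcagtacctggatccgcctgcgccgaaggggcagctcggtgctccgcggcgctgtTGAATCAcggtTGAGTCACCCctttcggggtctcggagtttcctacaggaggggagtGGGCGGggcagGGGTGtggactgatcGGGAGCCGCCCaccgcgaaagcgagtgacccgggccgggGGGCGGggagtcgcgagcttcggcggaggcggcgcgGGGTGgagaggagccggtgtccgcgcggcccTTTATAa
F2r: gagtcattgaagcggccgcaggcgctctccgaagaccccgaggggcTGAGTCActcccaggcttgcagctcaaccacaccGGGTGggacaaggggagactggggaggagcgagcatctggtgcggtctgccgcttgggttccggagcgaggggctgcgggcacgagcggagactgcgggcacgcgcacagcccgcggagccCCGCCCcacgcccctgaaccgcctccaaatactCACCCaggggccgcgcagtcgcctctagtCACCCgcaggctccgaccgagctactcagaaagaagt
Plaur: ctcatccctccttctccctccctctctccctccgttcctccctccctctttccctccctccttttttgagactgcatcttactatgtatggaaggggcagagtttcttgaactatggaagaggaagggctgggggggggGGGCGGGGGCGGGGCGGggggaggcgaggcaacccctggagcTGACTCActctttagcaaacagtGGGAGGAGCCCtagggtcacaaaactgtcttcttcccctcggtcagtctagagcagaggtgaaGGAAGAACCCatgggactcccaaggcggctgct
The AP-1 letters were found in 4 of the 5 members with a window, namely F3, F2r, Plaur and Procr. Counted by window this was 4 of 6, whereas 7.81% of the 32817 RefSeq windows of this length hold them. F3 had 2 of these matches, starting at -146 and -135 from the start site, the second of which runs into a CACCC match. The match in F2r starts at -204, that in Plaur at -69 and that in Procr at -154. The letters were therefore shared by members that rose and by the member that fell. GC boxes were in 4 of the 5 members and 5 of the 6 windows (35.6% of all windows), and CACCC in 4 members and 5 windows (57.5%). The NF-kB-like pattern was in 4 members and 4 windows (50.8%), and the ETS letters were in none (8.86%). ACGTG was in 1 member, Tfpi, and 1 window (19.6% of all windows), and TATAAA in 2 members and 2 windows (13.6%). A match of letters is a description of the window and not a binding site.

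Vwf (ENSMUSG00000001930; chromosome 6, 125546774 to 125686679, forward strand) encodes von Willebrand factor, the platelet adhesion protein that ECs store and that carries factor VIII in plasma. It was at 44.0, 28.7 and 46.6 CPM in the saline mice and at 127, 114 and 91.9 CPM in the PD mice. The groups were well apart, and the second saline mouse and the third PD mouse were the low members of their groups. Vwf thus rose by 1.48 on the log2 scale (SE 0.17; adjusted p = 2.71e-05), and by 0.50 relative to the endothelial markers (adjusted p = 2.85e-03). Its nearest profiles were those of the endothelial markers Robo4 (0.09) and Tie1 (0.11). The FPKM values gave a smaller difference, with means of 9.09 ± 1.26 and 18.3 ± 0.93 in the saline and PD groups (SD, n = 3 each). The transcript length implied by the deposited counts and FPKM was 3.71 to 4.71 kb in saline mice and 5.19 to 6.82 kb in PD mice, for a gene whose longest annotated transcript is 8.83 kb, so the counts and the FPKM rest on different lengths in the 2 groups. On the log2(FPKM + 1) scale the change was 0.94.

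Among the receptors and inhibitors that restrain thrombin, Thbd (ENSMUSG00000074743; chromosome 2, 148404466 to 148408188, reverse strand) encodes thrombomodulin, the cofactor that redirects thrombin to protein C. Its levels were 37.7, 34.3 and 38.2 CPM in the saline mice and 97.8, 84.9 and 89.1 CPM in the PD mice. Every PD mouse was above every saline mouse by more than the spread within either group. Thbd rose by 1.30 on the log2 scale (SE 0.08; adjusted p = 2.73e-07), and by 0.33 relative to the endothelial markers (adjusted p = 4.27e-03). The profiles closest to it were those of the macrophage gene Cd163 (0.07) and the endothelial gene Flt1 (0.10).

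Procr (ENSMUSG00000027611; chromosome 2, 155751117 to 155755471, forward strand) encodes the endothelial protein C receptor. The saline mice were at 9.88, 9.36 and 8.41 CPM and the PD mice at 16.0, 15.4 and 17.2 CPM. The groups were separate, and the rise of 0.81 on the log2 scale (SE 0.12; adjusted p = 2.04e-04) was smaller in value than the 1.30 of Thbd. Relative to the endothelial markers it was -0.17 (adjusted p = 0.282). Anxa2 (0.06) and the endothelial marker Egfl7 (0.09) had the nearest profiles.

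Tfpi (ENSMUSG00000027082; chromosome 2, 84432855 to 84476775, reverse strand) encodes the inhibitor of the tissue factor and factor VIIa complex. It was at 9.37, 12.9 and 8.57 CPM in the saline mice and at 16.2, 19.0 and 23.2 CPM in the PD mice. These groups did not overlap but spread more than those of Thbd or F2r, with the gap between the highest saline and the lowest PD mouse smaller than the range among the PD mice. On the log2 scale it rose by 0.92 (SE 0.18; adjusted p = 1.09e-03) and stood, relative to the endothelial markers, at -0.06 (adjusted p = 0.791). Its closest profile was that of Pros1 (0.14). F7 came next (0.15), but its own fold change was larger and its low level puts it among the genes that the added 1 shrinks.

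F2r (ENSMUSG00000048376; chromosome 13, 95601803 to 95618487, reverse strand) encodes the main protease-activated receptor for thrombin, through which thrombin signals to ECs. The saline mice were nearly identical at 29.5, 29.4 and 29.1 CPM, and the PD mice were at 70.1, 67.1 and 75.4 CPM. F2r rose by 1.27 on the log2 scale (SE 0.08; adjusted p = 1.99e-07), and by 0.30 relative to the endothelial markers (adjusted p = 0.0128). Cd163 (0.08) and the smooth muscle gene Tagln (0.09) were nearest to it.

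The related receptors did not follow F2r as a group. Of 3 tested, F2rl2, a cofactor receptor for thrombin, rose from a mean of 3.53 ± 0.50 to one of 5.46 ± 1.62 CPM (SD, n = 3 each; log2 fold change 0.63, adjusted p = 0.0419), with overlap between the groups and a value of -0.35 relative to the endothelial markers. This call was lost with the same direction under 6 of 14 alternatives, at adjusted p of 0.0662 to 0.174. It was also lost, with the direction reversed, under the scaling to endothelial markers (edgeR adjusted p = 0.204). F2rl1, a receptor for trypsin-like proteases, was at 10.8 ± 1.26 and 9.48 ± 0.70 CPM (adjusted p = 0.251). Its value was -1.17 relative to the endothelial markers (adjusted p = 9.52e-07). F2rl3, the receptor through which thrombin activates mouse platelets, was at 2.49 ± 0.56 and 2.46 ± 0.81 CPM (adjusted p = 0.963). Its value was -0.99 relative to those markers (adjusted p = 4.49e-03). Both lay near the median of all tested genes under that scaling, which was -0.96, with 72.2% of genes called lower.

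On the side of fibrinolysis, Plat (ENSMUSG00000031538; chromosome 8, 22757727 to 22782844, forward strand) encodes tissue-type plasminogen activator, which ECs release into blood. Its levels were 37.1, 36.1 and 40.9 CPM in the saline mice and 97.5, 98.1 and 105 CPM in the PD mice. The spread within each group was small beside the distance between them. Plat rose by 1.40 on the log2 scale (SE 0.08; adjusted p = 8.71e-08), the smallest adjusted p of the 9, and by 0.42 relative to the endothelial markers (adjusted p = 6.90e-04). Cd163 (0.04) and Flt1 (0.10) had the profiles most like it, and their log2 fold changes, 1.395 and 1.46, were close to its own.

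Plau (ENSMUSG00000021822; chromosome 14, 20836660 to 20843385, forward strand) encodes urokinase, the plasminogen activator that binds the receptor encoded by Plaur. The saline mice had 17, 8 and 10 counts and the PD mice 72, 12 and 15. The first PD mouse was thus far above all others, and the other PD mice, at 0.503 and 0.680 CPM, lay within or just above the range of the saline mice (0.369 to 0.664 CPM). The estimate of 1.41 on the log2 scale (SE 0.62; adjusted p = 0.0712) did not pass the test. Without the first PD mouse it was 0.28 (adjusted p = 0.687), and without the second or the third it passed the threshold, with adjusted p of 0.0301 and 0.0487. On the log2(FPKM + 1) scale it was 0.32 (limma, adjusted p = 0.170). A change in Plau could therefore not be told from the spread between mice at these counts. No listed gene had a profile close to it, the nearest being Itga2b at 0.36.

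Plaur (ENSMUSG00000046223; chromosome 7, 24462484 to 24475968, forward strand) encodes the urokinase receptor, which leukocytes also carry. It was at 247, 249 and 241 CPM in the saline mice and at 178, 196 and 234 CPM in the PD mice. The saline mice lay close together, while the PD mice were spread out and the third nearly reached them. It fell by 0.28 on the log2 scale (SE 0.09; adjusted p = 0.0202). The call was lost without the first saline mouse (adjusted p = 0.0675), the first PD mouse (0.0671) or the second PD mouse (0.0897), with log2 fold changes between -0.39 and -0.19 over all 6 mice left out in turn. Relative to the endothelial markers it was -1.25 (adjusted p = 1.73e-08), where the median of all tested genes was -0.96. Its nearest profiles were those of the T cell genes Cd3d (0.06) and Trac (0.08).

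Per length, in FPKM, the order of the 9 was nearly the same in both groups. Plaur led at 170 ± 1.88 and 139 ± 16.1 in the saline and PD groups (SD, n = 3 each), followed by Plat at 15.0 ± 1.11 and 39.8 ± 0.90. Thbd, Vwf and F2r came next in saline mice, at 9.83 ± 0.64, 9.09 ± 1.26 and 8.76 ± 0.07, and each overlapped with the next. In PD mice they no longer overlapped, at 24.4 ± 2.31 for Thbd, 21.3 ± 1.01 for F2r and 18.3 ± 0.93 for Vwf. Procr followed at 6.57 ± 1.36 and 10.3 ± 0.26, and Tfpi at 4.31 ± 0.90 and 8.30 ± 1.18. F3 lay below Tfpi in saline mice, at 0.841 ± 0.37, and overlapped with it in PD mice, at 7.43 ± 0.32. Plau was last at 0.229 ± 0.07 and 0.580 ± 0.51.

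Ratios of counts within a mouse do not depend on how the libraries are scaled. The ratio of F3 to Tfpi counts, tissue factor against its inhibitor, was 0.125, 0.0929 and 0.275 in the saline mice and 0.830, 0.760 and 0.587 in the PD mice. All PD mice were above all saline mice, with a mean difference of 2.29 on the log2 scale (exact permutation, two-sided, p = 0.1 and adjusted p = 0.15 over 3 ratios, where 0.1 is the lowest value this design can give). From log2(FPKM + 1) values the difference was 1.40. The ratio of Thbd to Procr was 3.81, 3.67 and 4.54 in the saline mice and 6.13, 5.51 and 5.19 in the PD mice, a mean log2 difference of 0.49 (exact permutation test, p = 0.1, adjusted 0.15). The ratio of Plau to Plat, the activators against each other, overlapped between the groups, with a mean log2 difference of -0.35 (exact permutation test, p = 0.6, adjusted 0.6). This ratio depended on the scale and on single mice. From log2(FPKM + 1) values the difference was -1.04 with separate groups (exact permutation test, p = 0.1). The added 1 is larger there than the mean Plau FPKM of either group (0.229 and 0.580), so that value mostly follows Plat. From counts the difference was -1.10 without the first PD mouse, 0.11 without the second, -0.06 without the third and -0.08 without the first saline mouse.

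**Figure D3:**
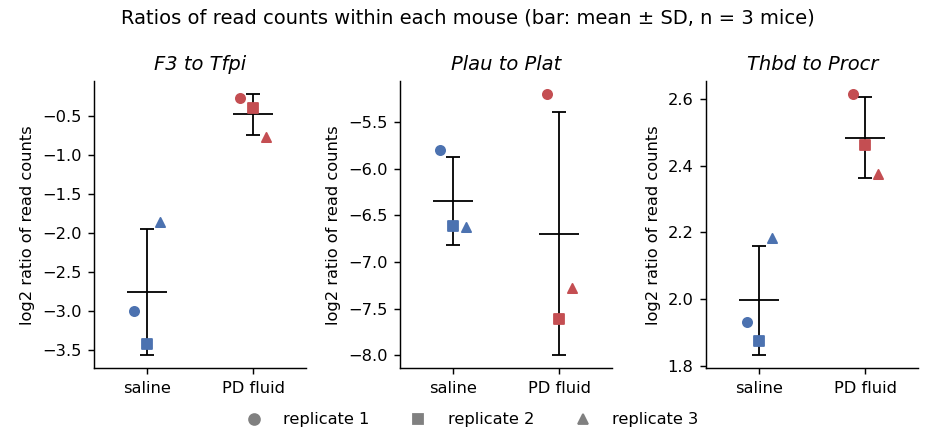
Log2 ratio of read counts within each mouse (y axes, which do not start at 0) for F3 to Tfpi, Plau to Plat and Thbd to Procr, in 3 saline mice (blue) and 3 PD mice (red), with the mean ± SD as bars and whiskers. The groups are separate for F3 to Tfpi and for Thbd to Procr and overlap for Plau to Plat.

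The other genes of the pathway were taken from 4 lists of 45 genes, of which 28 were tested, 17 rose, 2 fell and 9 did not pass the test (background 31.1% higher and 27.8% lower). Their median log2 fold change was 0.62. Relative to the endothelial markers, 7 of the 28 were called higher and 14 lower (background 8.28% and 72.2%), with a median of -0.35. The untested genes included plasminogen (Plg), a plasma protein of the liver, which had 0 counts in every mouse, a count that allows up to 0.137 CPM. Protein C (Proc) had 0 counts in each saline mouse and 3, 0 and 0 in the PD mice.

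Of 10 tested genes among the coagulation factors and the enzymes and carriers that process them, 6 rose and none fell, whereas relative to the endothelial markers 4 rose and 6 fell. F13a1, the fibrin cross-linking subunit of factor XIII that macrophages and platelets make, rose from a mean of 175 ± 4.83 to one of 707 ± 19.8 CPM (SD, n = 3 each; log2 fold change 2.01, adjusted p = 5.32e-10). F10, the protease at the start of the common pathway, rose from 0.672 ± 0.24 to 4.38 ± 0.82 CPM (log2 fold change 2.67, adjusted p = 3.08e-05), and F7, the ligand of tissue factor, from 0.502 ± 0.25 to 2.36 ± 0.72 CPM (log2 fold change 2.24, adjusted p = 7.91e-04). F5, the cofactor of factor Xa, rose from 1.81 ± 0.43 to 6.57 ± 1.79 CPM (log2 fold change 1.84, adjusted p = 1.21e-04). These 4 genes also rose relative to the endothelial markers, by 0.88 for F5 to 1.71 for F10. On the log2(FPKM + 1) scale, which understates the change of low genes, the values were 1.25 for F10, 0.83 for F7 and 0.59 for F5, all still called by limma. F8, the cofactor that ECs are a main source of, was at 3.67 ± 0.68 and 3.83 ± 0.20 CPM (log2 fold change 0.06, adjusted p = 0.820). Its value was -0.91 relative to the endothelial markers (adjusted p = 7.38e-04), near the median of -0.96 over all tested genes.

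In the list of anticoagulant genes, 7 were tested, 4 rose and 2 fell, and relative to the endothelial markers none rose and 4 fell. Protein S (Pros1), the cofactor of activated protein C, rose from a mean of 146 ± 9.04 to one of 272 ± 33.8 CPM (SD, n = 3 each; log2 fold change 0.90, adjusted p = 1.06e-05) and stood at -0.08 relative to the endothelial markers (adjusted p = 0.552). Antithrombin (Serpinc1) fell from 4.15 ± 0.85 to 2.29 ± 0.08 CPM (log2 fold change -0.86, adjusted p = 6.18e-03), a call that was lost on the log2(FPKM + 1) scale (-0.19, limma adjusted p = 0.263). Adamts13, the protease that cleaves von Willebrand factor, fell from 22, 22 and 18 counts to 6, 5 and 14 (log2 fold change -1.32, adjusted p = 0.0397), a call that was lost under 9 of the 14 alternatives at adjusted p of 0.0582 to 0.144.

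In the fibrinolysis list, 8 genes were tested, 6 rose and none fell, and relative to the endothelial markers 3 rose and 2 fell. The clearance receptor Lrp1, which takes up plasminogen activators bound to their inhibitors, rose from a mean of 4.99 ± 1.82 to one of 34.4 ± 4.61 CPM (SD, n = 3 each; log2 fold change 2.77, adjusted p = 1.51e-06), or by 1.58 on the log2(FPKM + 1) scale. Thrombospondin 1 (Thbs1), a matrix protein of platelets and many other cells, rose from 23.9 ± 3.87 to 135 ± 7.25 CPM (log2 fold change 2.49, adjusted p = 1.37e-08). The plasminogen receptor Anxa2 rose from 159 ± 8.29 to 282 ± 9.56 CPM (log2 fold change 0.83, adjusted p = 1.29e-06), and its partner S100a10 was at 166 ± 15.7 and 162 ± 4.37 CPM (adjusted p = 0.683). Relative to the endothelial markers Anxa2 was at -0.15 (adjusted p = 0.142) and S100a10 at -1.02 (adjusted p = 5.20e-08). The value of S100a10 lay near the median of all tested genes under that scaling, which was -0.96.

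**Figure D4:**
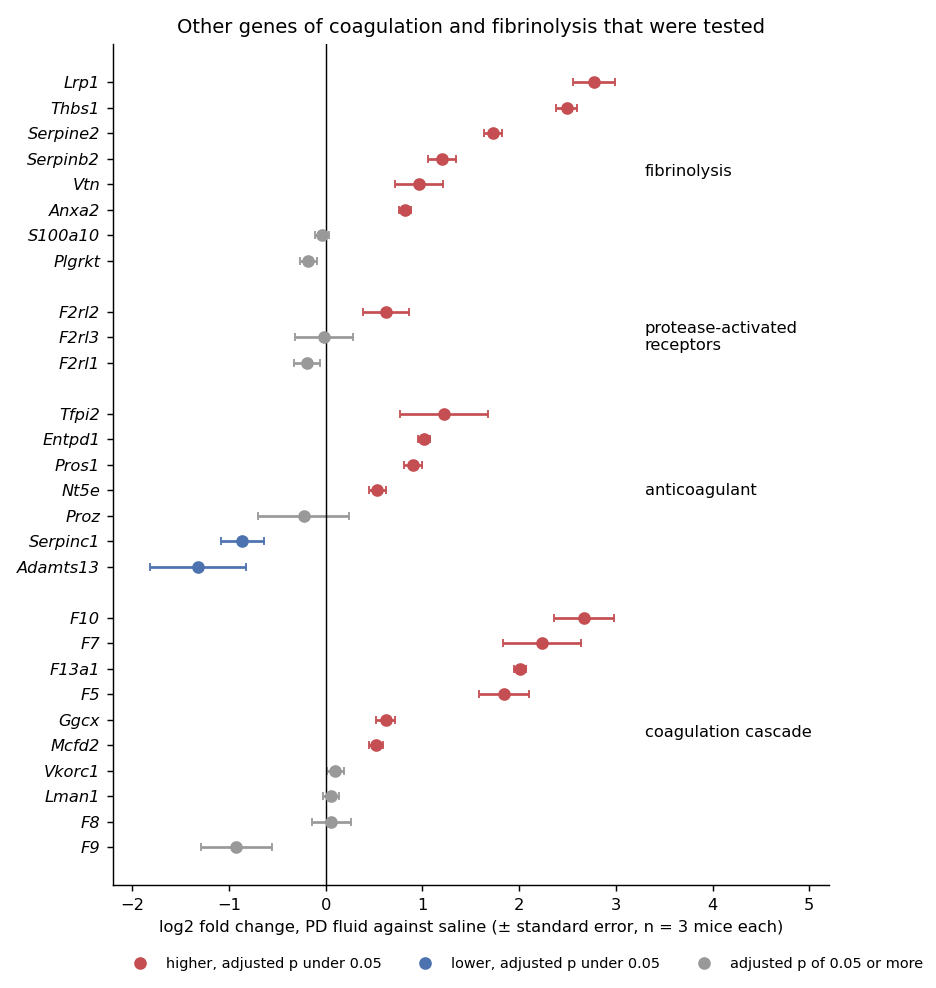
Log2 fold change of PD against saline mice (x axis, points with ± 1 standard error, n = 3 mice each, TMM scaling) for the 28 tested genes of 4 pathway lists, coloured by whether the adjusted p was under 0.05. Of the 28 genes, 17 lie to the right as called higher, with Lrp1 at 2.77 and F10 at 2.67 farthest out, and 2, Serpinc1 and Adamts13, to the left as called lower.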

How the data were processed

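The libraries of 3 saline and 3 PD mice were grouped by the treatment in the labels, and p-values measure the spread between mice. The authors deposited raw read counts and FPKM values for 22183 genes by Ensembl identifier. Per the labels, the submitters' processing notes name fastp 0.18.0, Bowtie2 2.2.8, HISAT2, StringTie 1.3.1 and RSEM, with no role or order. The genome build is not given in the sources used here, and positions come from GENCODE M21 on GRCm38, to which 22128 identifiers matched. The deposited table also holds mean FPKM values of each group, a log2 ratio, a p-value and an FDR from the authors' own comparison, none of which was used. Of the columns with sample values, 0 were left unmatched.

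Total counts ran from 21973426 to 26374292 per mouse. Counts were filtered with filterByExpr, scaled by TMM and tested with edgeR 4.0.16 (quasi-likelihood, no covariate, R 4.3.3), with p adjusted over 14005 genes. Standard errors come from the F statistic. The study's methods name limma, and limma-voom (limma 3.58.1) was an alternative, as were DESeq2 1.42.0, limma on log2(FPKM + 1), other scalings and filters, the replicate number as a block, and each mouse left out in turn. Ratios were tested with exact permutations. Tests were tried on simulated counts. Python 3.11.15, pandas 2.3.3 and scipy 1.17.1 made the tables.

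The members and lists were chosen with earlier results of these data known. Pathway genes described are those fixed by name, plus up to 5 in each direction with the largest change, an adjusted p under 0.05 and a mean of at least 10 counts. A gene planned for 1 list and 1 ratio is not reported here. The library kit does not mark strand, and no other annotated gene shares exon bases with the 9 members. Replicates of a group differed by more than counting noise. Intervals and floors of 3 counts cover counting error only.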

Additional observations from a re-analysis of the deposited data

How the results depend on the processing

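Each log2 fold change and count of calls was recomputed under 14 alternatives, and each ratio from FPKM values and with a mouse left out in turn. The log2 fold changes of Vwf, Thbd, F3, F2r and Plat kept their direction and their side of the threshold under all 14, although Vwf was at 0.94 on log2(FPKM + 1). Scaling to the 12 endothelial markers turned Procr to -0.17 and Tfpi to -0.055, and also Pros1 (-0.075), Anxa2 (-0.15), F2rl2 (-0.35), Ggcx (-0.36), Mcfd2 (-0.46), Nt5e (-0.45), Vtn (-0.02), F8 (-0.91), Vkorc1 (-0.88), Lman1 (-0.92), Cdh5 (-0.16) and Pecam1 (-0.85), and it changed the split of all calls from 4359 higher and 3887 lower to 1159 and 10116. With a mouse left out in turn, the log2 fold change of Plau ran from 0.28 to 1.79 and that of Plaur from -0.39 to -0.19, the number of members called from 7 to 9, the Plau to Plat ratio from -1.10 to 0.11, S100a10 from -0.12 to 0.01 (0.003 and 0.006 without the first or second saline mouse), F2rl3 from -0.26 to 0.22 (also 0.10 and 0.06), Proz from -0.485 to 0.31 (also 0.09) and F8 from -0.065 to 0.19. On log2(FPKM + 1), F8 was at -0.11, the F3 to Tfpi ratio at 1.40 and the Plau to Plat ratio at -1.04. The replicate numbers did not pair the mice (correlations of deviations 0.19, 0.07 and -0.27), and with the replicate block 8 members and 7909 genes were called, against 8 and 8246 without it. The cause of these shifts was not tested. Plau and Adamts13 had at most 72 and 22 counts in any mouse, which limits the precision of their fold changes.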

Other observations

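Further genes of the 45 were chosen after their values were seen. Among the inhibitors, Serpine2 (protease nexin 1, an inhibitor of thrombin and plasminogen activators) rose from a mean of 16.0 ± 1.00 to one of 53.3 ± 3.76 CPM (SD, n = 3 each; log2 fold change 1.73, edgeR adjusted p = 7.64e-08) and by 0.76 relative to the endothelial markers (adjusted p = 8.50e-06). Serpinb2, the inhibitor of urokinase that macrophages make, rose from 6.57 ± 0.88 to 15.2 ± 1.60 CPM (log2 fold change 1.20, edgeR adjusted p = 4.56e-05) and was at 0.23 relative to the endothelial markers (adjusted p = 0.188). Vitronectin (Vtn), an adhesive protein of plasma and matrix, rose by 0.97 on the log2 scale (edgeR adjusted p = 6.15e-03) and stood at -0.02 relative to the endothelial markers (adjusted p = 0.942). Of the genes that process clotting factors, the vitamin K dependent carboxylase Ggcx rose by 0.62 and the cargo receptor subunit Mcfd2 by 0.52, whereas Vkorc1 (adjusted p = 0.352) and Lman1, the partner of Mcfd2 (adjusted p = 0.560), did not pass the test. All 4 were called lower relative to the endothelial markers, Ggcx at -0.36 (edgeR adjusted p = 8.05e-03), Mcfd2 at -0.46 (adjusted p = 3.18e-04), Vkorc1 at -0.88 and Lman1 at -0.92. So were 72.2% of all tested genes under that scaling, and the median over all tested genes was -0.96. The surface enzymes that break down ATP and ADP to adenosine both rose, Entpd1 (CD39) from 63.1 ± 1.90 to 128 ± 3.32 CPM and Nt5e (CD73) from 63.4 ± 5.78 to 91.9 ± 7.04 CPM. Relative to the endothelial markers Entpd1 was at 0.04 and Nt5e at -0.45, the latter called lower (edgeR adjusted p = 6.34e-04). Tfpi2, a Kunitz-type inhibitor of plasmin and factor VIIa, rose from 15, 5 and 11 counts to 18, 31 and 24 (log2 fold change 1.22, edgeR adjusted p = 0.0386), a call lost under 8 of 14 alternatives at adjusted p of 0.0528 to 0.618. F9 had 27, 49 and 46 counts in the saline mice and 27, 25 and 15 in the PD mice (edgeR adjusted p = 0.0516).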
